A study of Mus musculus with 16 samples.

Results

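The imprinted locus of H19 and Igf2 was examined in maps of RUNX1, MyoD, c-Jun and MyoG binding from primary mouse muscle cells. Its members were all peaks of the 4 deposited peak lists that overlapped the window on chromosome 7 from 149.705 to 149.880 Mb of the mouse build mm9, which was set to hold H19, Igf2 and the muscle enhancers downstream of H19. The window held 32 of 193322 peaks, of which 13 were RUNX1, 5 MyoD, 4 c-Jun and 10 MyoG peaks. Peaks that overlapped by at least 1 bp were joined, which gave 19 regions of the 99567 in all lists, numbered here 1 to 19 in order along the chromosome.

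The myoblasts were grown from the gastrocnemius muscle of wild-type C57BL/6 mice aged 2 to 3 weeks. Chromatin immunoprecipitation followed by sequencing (ChIP-seq) was run on proliferating cells after 3 days in culture for RUNX1, MyoD and c-Jun, and on early myotubes, after 3 days and 24 more hours in low-serum differentiation medium, for MyoG. Each factor had 2 ChIP samples and 2 control samples, with rabbit non-immune serum as the control for RUNX1, mouse IgG for MyoD and MyoG, and rabbit IgG for c-Jun. The labels name no difference in genotype or drug between the groups, which differed in the factor, the antibody and its control and, for MyoG, in the stage of the cells. The deposited data were 1 peak list per factor, and the list taken as MyoG carried an abbreviation that was assigned by elimination. The lists gave no values for single samples or controls and no read counts, so the spread between cultures and the depth are unknown and no difference below carries a test or an error. A list from a whole culture cannot tell strong binding in few cells from weak binding in many, and since all animals were of the same inbred strain, the maternal and paternal copies cannot be told apart.

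H19 and Igf2 are the classic pair of reciprocally imprinted neighbours: H19 is transcribed from the maternal copy and Igf2 from the paternal copy, under an imprinting control region between them that binds the insulator protein CTCF when unmethylated. H19 yields a long noncoding RNA that is abundant in embryonic tissues and in skeletal muscle and is the host of miR-675, while Igf2 encodes a growth factor that promotes myoblast differentiation. Both genes draw on shared enhancers downstream of H19, among them enhancers active in muscle. Both are transcribed towards lower coordinates, so that the side downstream of H19 is the side of the window's start. MyoD and MyoG are basic helix-loop-helix factors of the muscle lineage that bind E-boxes, RUNX1 is a Runt-domain factor, and c-Jun, a bZIP protein, binds as part of AP-1. In RefSeq's annotation of the later build GRCm38.p6 the genes follow each other as Tnnt3, Mrpl23, Nctc1, H19 with Mir675, Gm33148, Igf2 with Mir483 and Igf2os, and Ins2. An annotation or sequence of mm9 was not used here, so no peak was assigned to a gene, a promoter or a named enhancer.

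Promoter sequences of this neighbourhood are shown because they are the sites at which these genes start and because the 4 factors recognise known short motifs. RefSeq's promoter table of GRCm38.p6 (250 bases before to 50 after a gene's start) held 4 promoters for Igf2. It held 1 for Nctc1, a muscle-expressed noncoding RNA next to H19, and 1 for Mrpl23, a mitochondrial ribosomal protein. No promoter was found in it under the name H19, so a promoter of H19 was not analysed here. The Mrpl23 promoter and Igf2 promoter 4 were searched but are not printed. The positions given with them are of GRCm38.p6 and cannot be set beside the mm9 positions of the peaks. Searched on both strands were the E-box CANNTG, the RUNX motifs TGTGGT and TGCGGT and the AP-1 motif TGANTCA, shown in capitals; no match overlapped another. All sequences below are on the minus strand, 5′ to 3′.
Igf2 promoter 1, chr7:142666767-142667066: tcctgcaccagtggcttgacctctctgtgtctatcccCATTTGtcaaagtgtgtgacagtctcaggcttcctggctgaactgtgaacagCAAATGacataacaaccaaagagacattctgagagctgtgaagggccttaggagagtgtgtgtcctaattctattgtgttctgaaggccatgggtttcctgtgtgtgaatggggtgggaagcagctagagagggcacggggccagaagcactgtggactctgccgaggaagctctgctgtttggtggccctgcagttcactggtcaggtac
Igf2 promoter 2, chr7:142661222-142661521: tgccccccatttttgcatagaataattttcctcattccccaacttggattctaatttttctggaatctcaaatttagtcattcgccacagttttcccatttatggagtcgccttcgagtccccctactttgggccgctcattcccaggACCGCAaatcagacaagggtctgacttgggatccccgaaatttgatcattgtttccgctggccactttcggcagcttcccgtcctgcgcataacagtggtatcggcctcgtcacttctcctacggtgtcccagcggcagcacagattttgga
Igf2 promoter 3, chr7:142658755-142659054: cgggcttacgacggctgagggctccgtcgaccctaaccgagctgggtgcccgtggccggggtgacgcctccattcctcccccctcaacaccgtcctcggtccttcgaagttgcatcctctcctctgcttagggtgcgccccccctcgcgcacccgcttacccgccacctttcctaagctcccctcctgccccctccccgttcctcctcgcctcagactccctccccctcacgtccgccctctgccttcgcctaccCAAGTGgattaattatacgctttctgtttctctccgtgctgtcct
Nctc1 promoter, chr7:142558549-142558848: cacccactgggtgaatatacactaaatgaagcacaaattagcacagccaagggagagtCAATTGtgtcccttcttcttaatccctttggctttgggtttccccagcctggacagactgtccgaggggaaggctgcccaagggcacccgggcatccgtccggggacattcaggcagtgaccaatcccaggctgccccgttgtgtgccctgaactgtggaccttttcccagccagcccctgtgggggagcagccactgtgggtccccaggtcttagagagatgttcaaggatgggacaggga

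Igf2 promoter 1, the one farthest upstream, held 2 E-boxes and promoter 3 held 1. Igf2 promoter 2 held 1 RUNX motif, in the form TGCGGT on the opposite strand, and promoter 4 held none of the motifs. The Nctc1 promoter held 1 E-box and the Mrpl23 promoter 1 E-box and 2 RUNX motifs. An AP-1 motif was in 0 of these 6 promoters. Of 32851 promoters in the table, 72.3% held CANNTG, 22.4% held 1 of the RUNX motifs and 7.81% held TGANTCA. An E-box in such a window is thus common, and a match describes the letters only.

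Of the 19 regions, 12 held 1 factor, against 48.3% of all regions, and 4 held 2, against 26%. The peaks of the myogenic factors lay towards the start of the window. All 5 MyoD and 10 MyoG peaks lay in the first 82.4 kb, up to position 149787446, together with 7 RUNX1 and 2 c-Jun peaks. This boundary is the end of the last MyoD peak, so by its choice the remaining 92.6 kb, from 149787447 on, held no peak of either myogenic factor. That stretch held 6 RUNX1 and 2 c-Jun peaks. After their last peaks in the window, the next MyoD peak followed 406 kb further on and the next MyoG peak 109 kb further on.

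**Figure D1:**
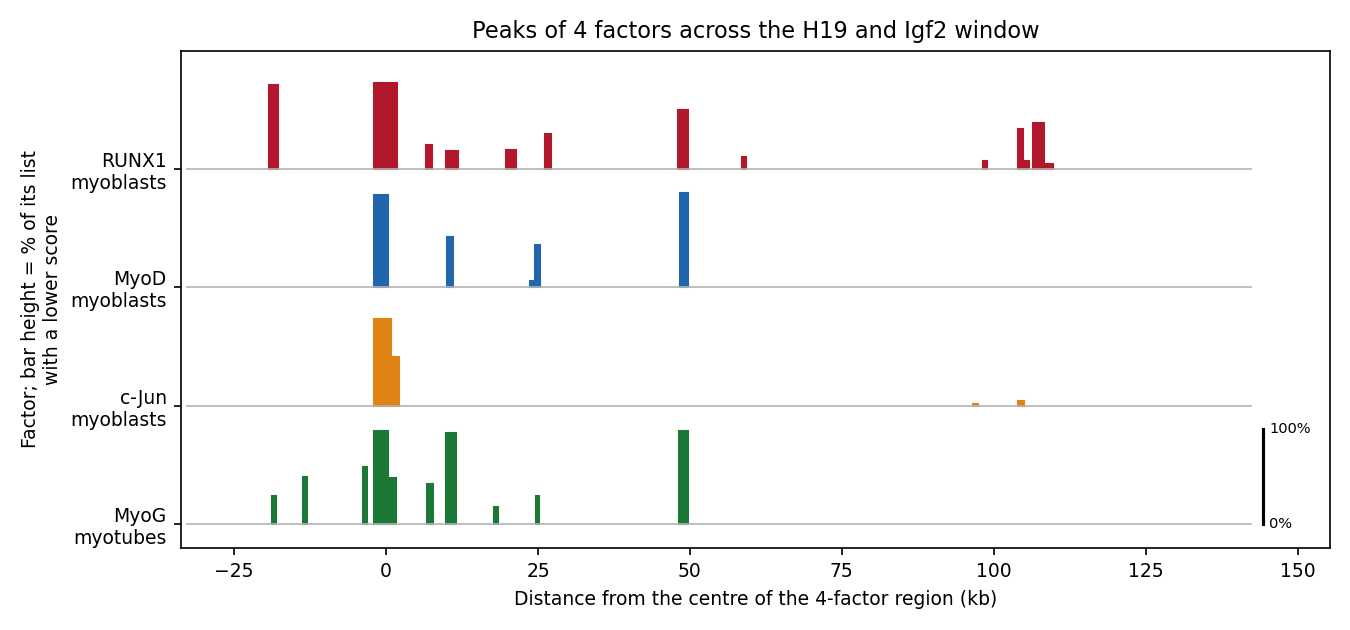
Peaks of the 4 factors across the window, drawn to scale against the distance in kb from the centre of the region with all 4 factors. Each bar is 1 peak, and its height is the percent of peaks of its own list with a lower score. The MyoD and MyoG bars end near 50 kb, and between 97.0 and 109 kb RUNX1 and c-Jun bars stand alone.

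The window held 1 region with all 4 factors, region 4, from 149735634 to 149739763. It is 5.26% of the 19 regions, against 10.7% of regions with 4 factors over all lists. The score that the authors' software gave each peak is used here only within a list; it starts at 50.01 and piles up at 3100, called the ceiling below. In region 4 the MyoD peak, from 149735710 to 149738082, and the first MyoG peak, from 149735773 to 149738087, both had a score of 3100. The c-Jun peak there, from 149735658 to 149738458, scored 1058, and the RUNX1 peak, from 149735634 to 149739511, scored 1054. Each was thus among the strong peaks of its list: 98.1% of MyoD peaks, 98.8% of MyoG peaks, 91.5% of c-Jun peaks and 90.8% of RUNX1 peaks scored lower.

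Region 4 was also wide, at 4130 bp against a median of 1544 bp over the 10609 regions with all 4 factors, of which 1.56% were at least as wide. The single RUNX1 peak, of 3878 bp, was wider than 99.8% of RUNX1 peaks, and the MyoD peak of 2373 bp wider than 99.8% of MyoD peaks. The second part of the region held a second c-Jun peak, from 149738623 to 149739763, with a score of 180, and a second MyoG peak, from 149738283 to 149739377, with a score of 181. Both overlapped the same RUNX1 peak, which covered the second MyoG peak wholly and 77.9% of the second c-Jun peak. They lay beyond the end of the MyoD peak, which was 200 bp short of the second MyoG peak and 540 bp short of the second c-Jun peak. The centres of the main MyoD and MyoG peaks lay 34 bp apart, those of c-Jun and MyoG 128 bp and those of MyoD and c-Jun 162 bp. The centre of the long RUNX1 peak was 676 bp from that of MyoD, so under a rule that asks for centres at most 150 bp apart RUNX1 no longer joined the region, while MyoD and c-Jun were each linked to MyoG but not directly to each other.

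Region 12, from 149785722 to 149787446, held RUNX1, MyoD and MyoG and no c-Jun. The MyoD peak, from 149786006 to 149787446, scored 3185, and 21 of 45951 MyoD peaks scored higher; whether scores above the ceiling mark stronger peaks than scores at it is not known. The MyoG peak, from 149785884 to 149787374, scored 3100. The RUNX1 peak, from 149785722 to 149787387, was moderate, with a score of 274 and 62.7% of RUNX1 peaks below it. The nearest c-Jun peak was 46.2 kb from the MyoD peak. The centres were close, 97 bp apart for MyoD and MyoG, 74.5 bp for RUNX1 and MyoG and 172 bp for RUNX1 and MyoD.

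MyoD peaks at or above the ceiling seldom lacked c-Jun in the whole MyoD list. Of the 880 MyoD peaks at or above the ceiling, 87.4% met a c-Jun peak, 85.1% a RUNX1 peak and 98.4% a MyoG peak. The 2 MyoD peaks of the window at or above the ceiling, against 1.92% of all MyoD peaks, both met RUNX1 and MyoG, and 1 of them met c-Jun. The 2 MyoG peaks at the ceiling, against 1.24% of all MyoG peaks, were those of the same 2 regions. No RUNX1 and no c-Jun peak of the window reached it, against 0.979% and 0.764% of their lists. Among 6690 regions with exactly RUNX1, MyoD and MyoG, which were 6.72% of all regions and 2 of the 19 here, 18 had both MyoD and MyoG at or above the ceiling, and region 12 was among these. For regions with all 4 factors, region 4 included, the number was 266 of 10609, or 2.51%.

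The third region with several factors, region 6, lay from 149747579 to 149749541, with 7.82 kb between it and region 4. Its MyoG peak, from 149747579 to 149749196, scored 1966, above 96% of MyoG peaks. The MyoD peak, from 149747665 to 149748638, scored 193, above 52.8% of MyoD peaks. The RUNX1 peak, from 149747579 to 149749541, scored 75.7, above 19.5% of RUNX1 peaks. The site thus stood high in the myotube list, in the middle of the MyoD list and in the lower part of the RUNX1 list, and it had no peak in the c-Jun list. Centres were 236 bp apart for MyoD and MyoG, 172 bp for RUNX1 and MyoG and 408 bp for RUNX1 and MyoD, so that none of these pairs lay within 150 bp by their centres. Together, 3 of the 19 regions held 3 or more factors, or 15.8%, against 25.7% over all lists. Exactly 3 factors were in 2 of them, against 15% over all lists.

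**Figure D2:**
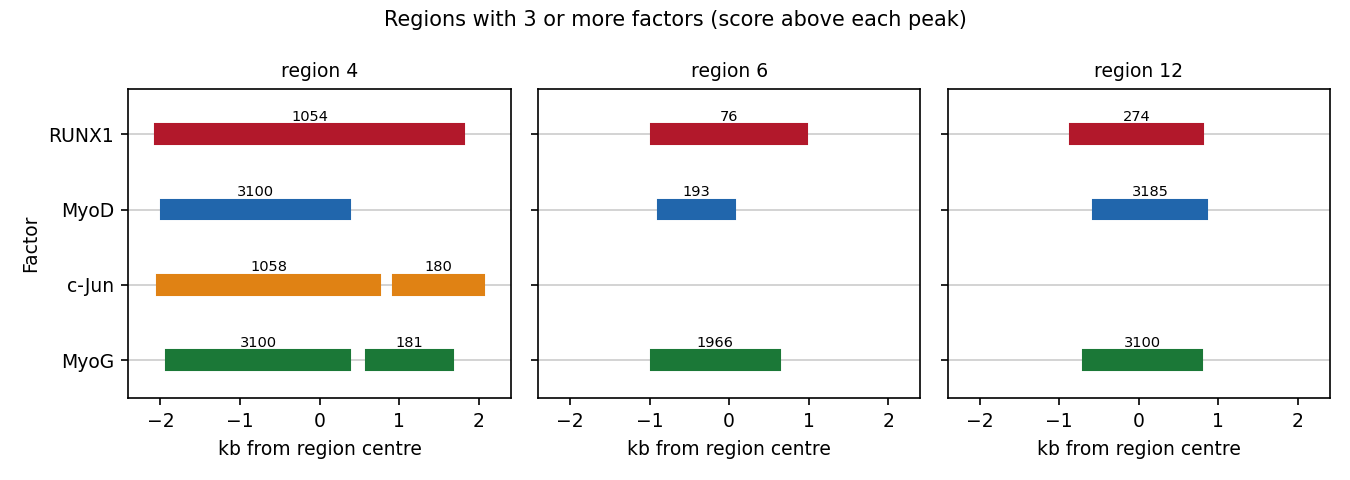
The 3 regions with 3 or more factors, with each peak drawn as a bar against the distance in kb from the region's centre and its score printed above it. In region 4 the RUNX1 bar spans both MyoG bars and the first c-Jun bar, while the second c-Jun bar runs past its end. Regions 6 and 12 have no c-Jun bar.

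MyoD, mapped here in proliferating myoblasts, and MyoG, mapped in early myotubes, met at most MyoD sites of the window. This share was close to that of the whole MyoD list. A MyoG peak overlapped 4 of the 5 MyoD peaks, at regions 4, 6, 10 and 12, against 77.1% of the whole MyoD list; with 5 peaks each counts for 20 percentage points. Region 10, from 149762257 to 149763089, held MyoD with a score of 150 and MyoG with a score of 101 and no other factor, and its centres were 19.5 bp apart. The MyoD peak without MyoG, region 9, from 149761318 to 149762019, scored 61.3, and 7.07% of MyoD peaks scored lower. It ended 237 bp before region 10.

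In the other direction 4 of the 10 MyoG peaks met MyoD, against 57.7% of the whole MyoG list. The 6 MyoG peaks without a MyoD peak had scores from 74.6 to 280. Of these, 3 met no other list, against 26.6% of all MyoG peaks: region 2 at 149724040 to 149724698, region 3 at 149733838 to 149734592 and region 7 at 149755528 to 149756163, with scores of 186, 280 and 74.6. The strongest of them, region 3, lay 1.04 kb before region 4. Another 2, in regions 1 and 5, met RUNX1 only, and the last was the second MyoG peak of region 4. MyoD was not mapped in myotubes nor MyoG in myoblasts, so factor and stage cannot be told apart at these sites.

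With all peaks counted, RUNX1 had the most in the window, and most of them were weak. A score of at least 100 was held by 9 MyoG and 6 RUNX1 peaks, but scores of different lists may not share a scale. MyoG also had more in the stronger 50% of each list, at 4 against 3. In a window widened by 25 kb on each side it had 15 against 14. The MyoG list is also longer, with 62456 peaks against 42781 in the RUNX1 list, and comes from another stage of the cells. The scores of the RUNX1 peaks ran from 56.0 over a median of 87.0 to 1054, against a median of 177 in the whole RUNX1 list. Of the 13, 3 were at or above that median. Those 3 were in regions 4, 1 and 12. The RUNX1 peak of region 1, from 149718420 to 149719866, scored 892, above 88.4% of RUNX1 peaks, and met a MyoG peak with a score of 102, from 149718942 to 149719658. The MyoG peak lay wholly inside it. MyoD was 15.8 kb away and c-Jun also 15.8 kb away. Region 5, from 149744251 to 149745404, likewise paired RUNX1 with MyoG, with scores of 87.0 and 148.

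**Figure D3:**
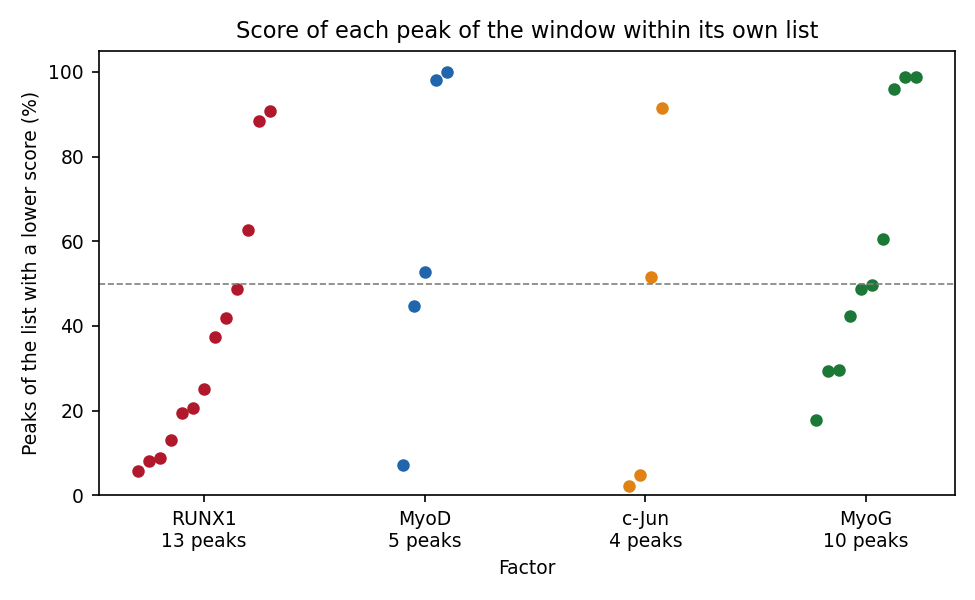
Position of each of the 32 peaks within its own list, as the percent of the list's peaks with a lower score, by factor; each point is 1 peak and the dashed line is the middle of the list. Of the RUNX1 points 3 of 13 lie above the line, and for MyoG 4 of 10, for MyoD 3 of 5 and for c-Jun 2 of 4.

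The RUNX1 peaks of the window met each other list in a smaller share than the whole RUNX1 list did. A MyoD peak met 3 of 13, against 44.3% of all RUNX1 peaks, a c-Jun peak 2 of 13, against 46.8%, and a MyoG peak 5 of 13, against 57.9%. No other list met 7 of the 13, against 25.2%. These 7 stood as regions of their own, 7 of the 19, against 10.8% of all regions. Weak RUNX1 peaks met others less often throughout the genome, at 36.7% for MyoD, 34.8% for c-Jun and 47.8% for MyoG among peaks below the median score, and 34.6% of them met none. Of the 10 such peaks here, 1 met MyoD, 1 met c-Jun, 2 met MyoG and 7 met none. Of the 3 stronger ones, 2 met MyoD, 1 met c-Jun and 3 met MyoG, against 51.9%, 58.8% and 68% of RUNX1 peaks at or above the median, of which 15.8% met none. With 13 neighbouring peaks, and 7.69 percentage points for each, whether the locus differs from the rest of the genome was not tested.

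MyoG and MyoD peaks met RUNX1 at 6 of 10 and 3 of 5, against 42.4% in each whole list. For c-Jun these numbers were 2 of 10 MyoG peaks, against 32.8%, and 1 of 5 MyoD peaks, against 41.9%. The 4 c-Jun peaks met RUNX1 at 3, against 46.8%, MyoD at 1, against 44%, and MyoG at 2, against 45.1%. Both c-Jun and both MyoG peaks of region 4 overlapped the same RUNX1 peak, so these shares count that site more than once. A single peak more or fewer moves a c-Jun share by 25 percentage points.

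**Figure D4:**
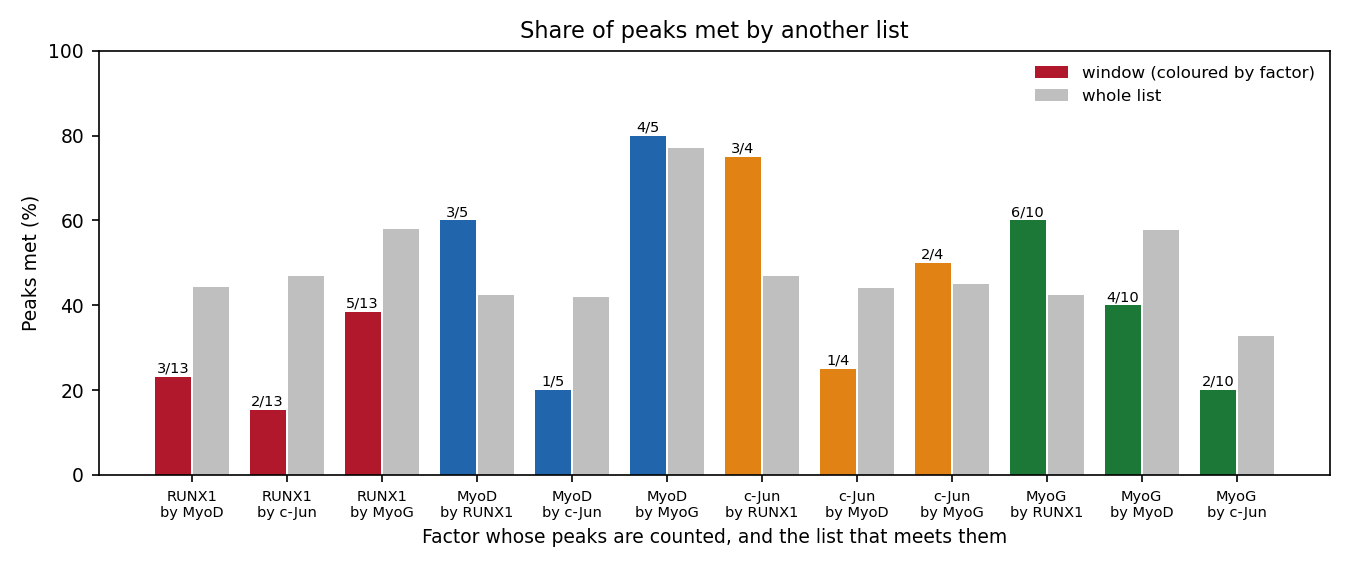
Percent of each factor's peaks that met another list by at least 1 bp, in the window (coloured, with counts) and in the whole list (grey). The 3 RUNX1 bars lie below their grey bars, and MyoD by MyoG, at 4 of 5, lies near its grey bar of 77.1%.

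The far end of the window held RUNX1 and c-Jun without the myogenic factors. Regions 14 to 19 spanned 13.1 kb, from 149834345 to 149847406. In it, 5 RUNX1 peaks lay within 11.5 kb, with scores from 56.0 to 171. The strongest was region 18, from 149844113 to 149845964, with a score of 171 and 48.8% of RUNX1 peaks below it. Region 16, from 149841616 to 149842620, paired a RUNX1 peak scored 139 with a c-Jun peak scored 54.7, with centres 29 bp apart. The other c-Jun peak, region 14, from 149834345 to 149835050, scored 52.1, and 2.16% of c-Jun peaks scored lower. These 7 peaks were thus all below the middle of their lists, and the c-Jun peaks were near the lower limit of the scores.

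Stretches as dense in RUNX1 peaks were counted over the whole RUNX1 list, a comparison chosen after the values were seen. The length of 11.5 kb, the 5 peaks and the lack of MyoD and MyoG were taken from the run in the window. That run therefore meets them by construction and is part of its own reference. Stretches were not matched for score, and whether such runs are unusual was not tested. Of 42781 RUNX1 peaks, 146 started a stretch of 11.5 kb with at least 5 RUNX1 peaks, and 2 of these stretches held neither MyoD nor MyoG. They were the one in the window and one on chromosome 6 from 52173930 to 52185391. With stretches of 15 kb the number was 1 of 456, the one in the window, and with 20 kb it was 4 of 1314, the window's included. Stretches from neighbouring peaks overlap, so these are not independent sites. After the run, no peak of any list lay in the last 32.6 kb, from 149847407 on, and another 37.4 kb between regions 13 and 14 were also free of peaks.

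Set beside the genome with all peaks counted, the window was dense in RUNX1 peaks and less so in the others. Chromosomes 1 to 19 and X were cut into 15053 tiles of the length of the window. Its 13 RUNX1 peaks compared with a mean of 2.86 per tile, and 96.3% of tiles had fewer, while 42% of tiles held none. The density was not confined to the window: the stretch of the same length just before it held 15 RUNX1 peaks, and the one just after it held 1. The window's 10 MyoG peaks compared with a mean of 4.16, and 84.9% of tiles had fewer. For MyoD, 5 peaks compared with 3.06 and 73.3% of tiles had fewer, and for c-Jun, 4 peaks compared with 2.81 and 67.6% of tiles had fewer. The RUNX1 position rested on weak peaks: counting only the stronger 50% of the list, the window held 3 RUNX1 peaks and 78.2% of tiles had fewer. By the same limit the share was 78.2% for MyoG, 76.9% for MyoD and 66.8% for c-Jun, so RUNX1 no longer stood above MyoG.

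**Figure D5:**
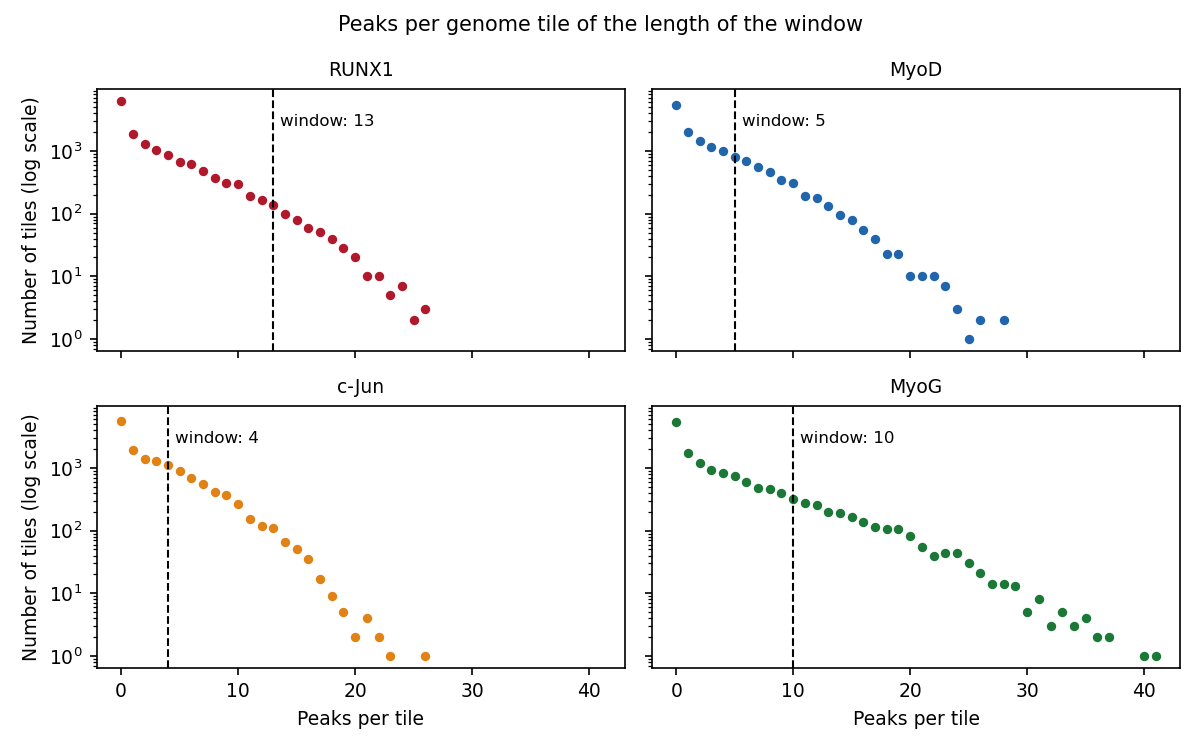
Number of genome tiles, on a log scale, against the number of peaks per tile for each factor, with tiles of the length of the window; each point is a number of peaks and the dashed line marks the window. The window's 13 RUNX1 peaks lie far along the distribution, and its 4 c-Jun peaks lie near the mean of 2.81.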

How the data were processed

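ChIP-seq peak lists of 4 factors were used. Per the submitters' processing notes the build was mm9, with CASAVA 1.7.0 and 1.8.2 and Bowtie named; peak names in the deposited files begin with MACS, whose version, settings, control and handling of replicates were not given in the sources used here. A deposited score per peak, from the authors' software, ranked peaks within 1 list only. The window starts beyond the last chromosome 7 gene of GRCm38, so the lists cannot be on that build.

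Peaks were joined at an overlap of at least 1 bp with Python 3.11.15 and numpy 2.4.6, and figures were drawn with matplotlib 3.10.9. The overlap code was tested on 5 simulated pairs of lists and found 100% of the planted overlaps. Regions with 3 or more factors and the 3 highest peaks of each list were to be given in full; other regions are named after their values were seen. The members and lists were chosen with earlier results of these data known. Tiles ran from each chromosome's first base to its last peak. Alternatives were other overlap rules, score limits, window edges and tiles. Depth is unknown, so the precision of a count of peaks is unknown too.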

Additional observations from a re-analysis of the deposited data

How the results depend on the processing

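Of 52 alternative values, 32 left the count within 1.5 times or the tile share within its 95% Wilson interval, and 20 did not. The interval treats neighbouring tiles as independent. It served only as a limit for sorting the alternatives, not as an error of the shares. The stronger 50% of each list left 3 RUNX1, 3 MyoD, 2 c-Jun and 4 MyoG peaks in 5 regions, 2 of them with 1 factor. A score of at least 100 left 6 RUNX1, 4 MyoD, 2 c-Jun and 9 MyoG peaks, 11 regions and 6 regions with 1 factor. With centres within 150 bp, 0 regions held all 4 factors and 22 regions held 1. The shares of tiles with fewer peaks than the window were 95% for RUNX1, 63.6% for MyoD, 55.9% for c-Jun and 79.4% for MyoG among tiles with at least 1 peak, and 78.2%, 76.9%, 66.8% and 78.2% in the stronger 50% of each list. By construction the score limits use fewer peaks, the tile limit fewer tiles and the centre rule a stricter link between the same peaks. Widening or narrowing the window by 25 kb moved no count of peaks by more than 1.5 times. Splits by the median RUNX1 score and by the ceiling were chosen after the values were seen. No paired analysis was possible because each list stands for a factor's samples jointly; replicates could not be left out either. With the depth unknown, a missing peak does not show that a factor was absent.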

Other observations

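The surroundings of the window differed on its sides. The stretch of the same length before it, from 149529999 to 149704999, held 15 RUNX1, 7 MyoD, 14 c-Jun and 19 MyoG peaks. The stretch after it, from 149880001 to 150055001, held 1 RUNX1 and 1 MyoG peak and none of the other lists. The next c-Jun peak beyond the last one of the window was 248 kb away and the next RUNX1 peak 128 kb away.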
